A study of Phalacrocorax auritus with 15 samples.

Results

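Livers of double-crested cormorant embryos exposed in the egg to the higher dose of ethinylestradiol (EE2), a synthetic oestrogen, were set against livers exposed to the solvent alone. The comparison takes the 5 libraries whose class in the deposited count table is high, with a nominal dose of 33.3 µg EE2 per g egg and a stated actual dose of 31.9 µg per g egg, and the 5 of class control, which received dimethyl sulfoxide (DMSO). These are 10 of the 15 libraries of the series. The other 5, at a nominal 3.33 µg per g (actual 2.3 µg per g), entered no test in this comparison and are given beside single features. Injections of 50 µl went into the air cell, eggs were then incubated (60% humidity, 37.5 °C), and RNA came from the left lobe. The stage is embryonic day 14 in the sample labels, whereas the series' design text gives day 16 for this species. Samples of a group are numbered as replicates but not said to come from separate eggs, so a p-value here measures the spread between these samples, which may be technical.

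In egg-laying birds the liver makes the precursors of yolk under the control of oestrogen, which binds nuclear receptors that act on the promoters of target genes. Vitellogenins and the lipoproteins that carry lipid to the ovary are the classical targets. Vitellogenins are silent or nearly so in livers that have not seen oestrogen, and in chick embryos and males the liver can be made to express them by giving the hormone. Genes of secreted proteins such as albumin and the apolipoproteins otherwise dominate liver RNA. The count table identifies its features by number only and pairs none of the 16181 IDs with a gene name, so no feature below can be placed in these groups, gene lists and markers of liver or of other cell types could not be tested, and features are described by level, size of change and behaviour across embryos.

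Total counts were 11602455 to 19929889 per solvent library and 13107675 to 19653262 per library at 33.3 µg/g. Levels are given as CPM, which sets each count against its own library total. They are not corrected for feature length, which the table does not give, so levels of different features were not compared as transcript numbers. Of the 16181 features, 12777 (79%) had enough counts to be tested (a count of at least about 10 in 5 or more of the 10 libraries). As these are bulk livers, fewer cells of a type and less RNA per cell cannot be told apart.

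One solvent library stood apart. Over the tested features, its log2 CPM correlated with those of the other 4 solvent livers at r = 0.776 to 0.837, against 0.951 to 0.983 among those 4 and 0.931 to 0.987 among the 5 exposed livers. With the exposed livers, solvent replicate 2 correlated at r = 0.7928 to 0.8605, and the other 4 solvent livers at 0.8625 to 0.9229. These correlations are across features, which are not independent replicates. In solvent replicate 2, 186 features were at least 10-fold above the highest of the other 4 solvent livers and 126 at least 10-fold below the lowest, with levels under 1 CPM set to 1 CPM. The same counts for any other library against its own group did not exceed 12 and 0. Among the 20 features that held the most counts in the other 4 solvent livers, solvent replicate 2 was below all 4 in 18, under 0.1 of their mean in 10 and under 0.01 of it in 9. No exposed liver was under 0.01 of that mean for any of the 20, and in 3 of them an exposed liver was under 0.1. Why this library differs was not tested. Counts of changed features and the features described one by one are therefore given for all 10 libraries, and without this library where that moves them. All solvent columns share one name prefix in the table and all exposed columns another. What the prefix marks is not stated, and it cannot be told apart from exposure.

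A large share of hepatic features differed in level between livers at 33.3 µg/g EE2 and solvent livers, in both directions. With all 10 libraries, 1327 features rose (10.4% of those tested) and 1485 fell (11.6%), together 22.0% (edgeR quasi-likelihood test, Benjamini-Hochberg adjusted p under 0.05). Without solvent replicate 2, 2640 of 12850 features rose (20.5%) and 2766 fell (21.5%), together 42.1%. Of the 2812 features called with all 10 libraries, 2798 (99.5%) were called again with the same sign, and none was called with the opposite sign. In the tests that left out one library each, 1700 of the 2812 (60.5%) were called every time, 799 of them increases and 901 decreases.

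These directions hold relative to TMM scaling (trimmed mean of M-values), under which the median change over all features was 0.0168 (log2), or 0.0834 without solvent replicate 2. With library size as the only scaling the median was 0.399, with 1951 increases (15.3%) and 530 decreases (4.15%), together 19.4%, so that increases were 78.6% of the calls in place of 47.2%. Of the 2812 calls with TMM scaling, 1447 (51.5%) were called again with the same sign and 0 with the opposite sign. Without solvent replicate 2 the median with library size alone was 0.752, and 8218 features rose and 954 fell, together 71.4% of 12850. In that test 2077 of the 2812 (73.9%) were called with the same sign and 49 with the opposite sign. The features described one by one below kept their direction under each of these scalings and under median-of-ratios scaling.

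Large changes were more often decreases with TMM scaling and more often increases with library size alone. At least 2-fold changes comprised 375 increases (2.93% of features tested) and 770 decreases (6.03%) with TMM scaling, and 846 increases (6.62%) and 301 decreases (2.36%) with library size alone. Without solvent replicate 2 and with TMM scaling they comprised 668 increases (5.2%) and 1103 decreases (8.58%). At least 16-fold changes comprised 20 increases and 44 decreases, or 31 and 56 without that library. Features that rose had a median log2 fold change of 0.67, and features that fell one of -1.02, or 0.63 and -0.83 without that library. At the other end, 952 of the increases and 715 of the decreases were under 2-fold, or 1972 and 1663 without it. Of the 9965 features that were not called, 6412 (64.3%) had a 95% interval of the fold change that lay within 2-fold in either direction, and 605 had an estimate of at least 2-fold. Once solvent replicate 2 was left out these were 5135 of 7444 (69.0%) and 332.

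**Figure D1:**
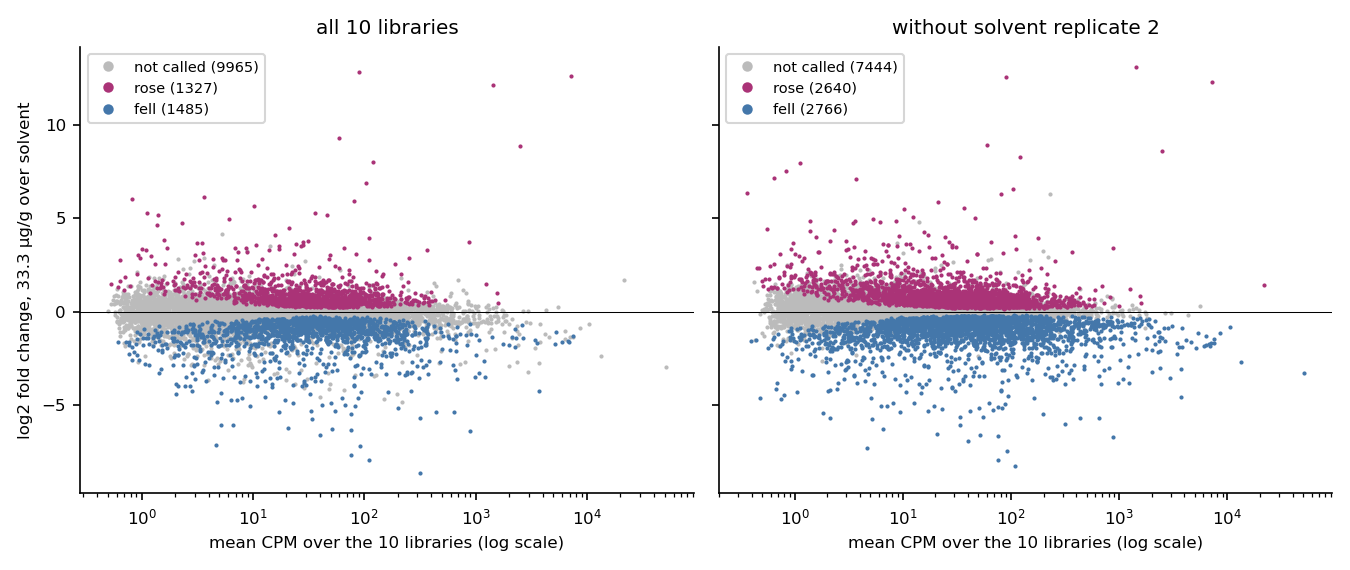
Log2 fold change of each tested feature at 33.3 µg/g over solvent, against its mean CPM over the 10 libraries on a log axis, for the test with all 10 libraries (left) and without solvent replicate 2 (right). Purple points rose and blue points fell at an adjusted p under 0.05. Of the 103 features with 1000 CPM or more, 6 rose and 24 fell on the left, and 7 rose and 77 fell on the right.

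The share of features called grew with the number of counts they held. It was 8.68% of the 288 tested features with a mean under 1 CPM, 14.8% of 3301 between 1 and 10 CPM, 24.5% of 7582 between 10 and 100 CPM, 27.2% of 1503 between 100 and 1000 CPM and 29.1% of 103 with 1000 CPM or more. With TMM scaling, decreases outnumbered increases most in the classes with the most counts. Between 10 and 100 CPM, 960 features rose and 901 fell. Between 100 and 1000 CPM, 152 rose and 257 fell, and at 1000 CPM or more 6 rose and 24 fell. With solvent replicate 2 left out the share called was 19.1% in the lowest class and 45.7, 57.5 and 81.6% in the 3 highest. That test gave 1828 increases and 1637 decreases between 10 and 100 CPM, 291 and 573 between 100 and 1000 CPM, and 7 and 77 at 1000 CPM or more. Library size alone gave 13 increases and 20 decreases in that class with all libraries and 25 and 44 without solvent replicate 2, so decreases outnumbered increases there with either scaling.

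Features that rose held 4.33 ± 1.63% of the counts in solvent livers and 12.03 ± 0.676% at 33.3 µg/g, and features that fell held 22.9 ± 2.31% and 12.1 ± 0.501% (SD, n = 5 each). Features called without solvent replicate 2 held far larger shares. Those that rose went from 7.9 ± 1.03% in the remaining solvent livers (SD, n = 4) to 23.5 ± 1.15% (SD, n = 5), and those that fell from 69.0 ± 3.5% (SD, n = 4) to 38.8 ± 2.12% (SD, n = 5). Since the calls come from these very libraries, the shares are a description and no further test. All 5 exposed libraries lay above all 5 solvent libraries in 1139 features (8.91%) and below them in 864 (6.76%), on TMM-scaled levels. With median-of-ratios scaling the counts were 975 (7.63%) and 940 (7.36%), and with library size alone 1532 (12.0%) and 473 (3.7%). Without solvent replicate 2, on TMM-scaled levels, they were 2215 (17.2%) and 2330 (18.1%). Groups without overlap are easier to reach with fewer libraries, and no other library was left out for these counts.

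The 15 largest increases by fold started from low levels in solvent livers, the highest single value being 12.9 CPM. The rule for naming took features called with and without solvent replicate 2, with a mean of at least 1 CPM and no overlap between the groups, and ranked them by fold. Ranks below are ranks within that set. In all, 992 increases and 792 decreases met it, and the 15 largest of each are described. Mean levels of the 15 increases lay between 0.0116 and 6.78 CPM in solvent livers and between 2.19 and 14530.1 CPM at 33.3 µg/g, and their log2 fold changes lay between 4.96 and 12.81. Limma-voom and DESeq2 each called all 15 (adjusted p under 0.05), and 19.9% and 29.4% of all 12777 features. The 15 were chosen by their calls and separation in the same counts, so this is no further support. Of the features with less than 1 CPM in every solvent library, 3 had at least 10 CPM in every exposed library, and 5 did when solvent replicate 2 was left out. At 100 CPM or more in every exposed library the counts were 0 and 2. No feature went the other way by these measures, with or without that library.

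**Figure D2:**
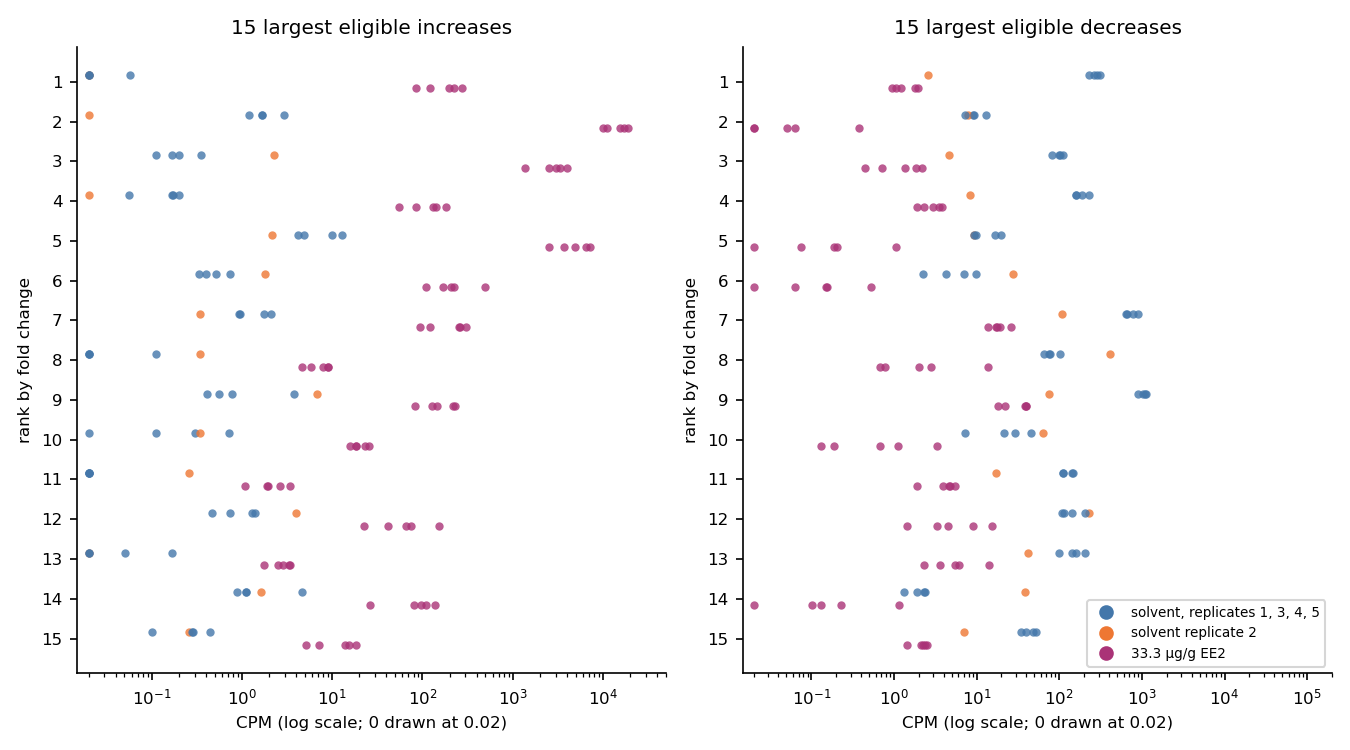
Level in each of the 10 libraries, in CPM on a log axis with 0 drawn at 0.02, of the 15 largest increases (left) and the 15 largest decreases (right) that met the naming rule, ordered by fold change. Solvent libraries are blue, solvent replicate 2 is orange and libraries at 33.3 µg/g are purple. The groups do not overlap, as the rule requires, and solvent replicate 2 is closer to the exposed libraries than the other solvent libraries are in several decreases.

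The first by fold was s2f_0008026003. Its level was 0, 0, 0.0581, 0 and 0 CPM in solvent replicates 1 to 5 and 273.9, 122.8, 83.93, 195.5 and 221.1 CPM in the 5 exposed livers. The solvent value is 1 count in 1 library, so all 5 exposed livers were far above every solvent liver. The fitted log2 fold change was 12.81 (SE 0.69, edgeR adjusted p = 3.6e-05). This estimate depends on the small count added before fitting. From the pooled counts, 14133 at 33.3 µg/g against 1 in solvent, the ratio was 15437 with a 95% interval of 2770 to 609776, which covers counting error only. At 3.33 µg/g the 5 libraries lay between 26.76 and 230.6 CPM.

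The second, s2f_0020325001, had the largest gain in mean CPM among features called both with and without solvent replicate 2. Solvent replicates 1 to 5 had 1.204, 0, 2.962, 1.665 and 1.682 CPM and the exposed livers 18762, 11154.3, 9929.6, 17307.3 and 15497.2 CPM. It went from 1.5 ± 1.07 CPM to 14530.1 ± 3844.4 CPM (SD, n = 5 each), and it held rank 3 by counts in exposed livers, where it took 1.45 ± 0.384% of the library. Its log2 fold change was 12.58 (SE 1.11, edgeR adjusted p = 0.000195). Leaving out solvent replicate 2 gave 12.26 (SE 0.517, edgeR adjusted p = 1.15e-06). Libraries at 3.33 µg/g had 5935.2 to 19098.4 CPM.

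The third and the fifth largest increases carry IDs that differ only in their final 3 digits. What the parts of an ID stand for is not given in the sources used here, and whether such features share reads was not tested. The third had 0.201, 2.24, 0.349, 0.111 and 0.168 CPM in solvent replicates 1 to 5 and 3002.3, 2523.9, 1357.5, 3367 and 4031.9 CPM in exposed livers. Its log2 fold change was 12.11 (SE 0.809, edgeR adjusted p = 4.45e-05), or 13.07 when solvent replicate 2, its highest solvent liver, was left out. The fifth went from 6.78 ± 4.45 to 4977.8 ± 1906.3 CPM (SD, n = 5 each), and its log2 fold change was 8.89 (SE 0.825, edgeR adjusted p = 0.000234). It was therefore present at a low level in every solvent liver, between 2.15 and 12.9 CPM.

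Other increases, of moderate or low final level, also started from low levels in solvent livers. The fourth had at most 0.201 CPM in a solvent liver and 131.7, 84.53, 54.82, 181.9 and 140.2 CPM in exposed livers. The sixth went from 0.759 ± 0.606 to 239.7 ± 145.5 CPM (SD, n = 5 each), with a highest value of 488.4 CPM in exposed replicate 5. The tenth went from 0.296 ± 0.276 to 20.2 ± 3.86 CPM and had 7.43 ± 4.18 CPM at 3.33 µg/g (SD, n = 5 each), where the libraries ranged from 3.01 to 13.66 CPM and thus lay below the lowest exposed liver of the higher dose, at 15.93 CPM. That difference between doses was not tested here. The eleventh had 3 counts in solvent, all in replicate 2, and 164 counts at 33.3 µg/g, a ratio of 59.7 with a 95% interval of 20.1 to 293 for counting error only. Its fitted log2 fold change, 5.29, was 7.93 without that library.

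The 5 exposed livers differed in the level of these features. Exposed replicate 3 had the lowest CPM of the 5 in 14 of the 15 increases, and replicate 5 in the remaining one. Replicates 1 and 4 were each the highest in 6, and replicate 5 in 3. On the TMM-scaled values replicate 3 was again the lowest in 14. Exposed replicate 3 also held the smallest share of counts in its 20 leading features among the exposed livers, 12.4%, and the largest number of features with at least 1 CPM, 12713. The part of these differences in the lower levels was not tested.

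Among the 15 decreases, mean levels lay between 9.27 and 842.4 CPM in solvent livers and between 0.099 and 31.5 CPM at 33.3 µg/g. Their log2 fold changes lay between -7.96 and -4.75, and between -8.27 and -3.35 without solvent replicate 2. Limma-voom called 13 of the 15 and DESeq2 14, and 19.9% and 29.4% of all 12777 features. This is no further support, as these 15 were chosen from the same counts. Exposed replicate 2 was the highest of the exposed livers in 9 of them. Solvent replicate 2 was the lowest of the solvent livers in 9 and the highest in 5 by CPM, so it was at an end of its group in 14 of the 15. On TMM-scaled levels it was the lowest in 10 and the highest in 3. The lowest solvent mean and the smallest change without solvent replicate 2 both belong to rank 14, which had 38.44 CPM in that library, against 1.98 ± 0.491 CPM over the remaining 4 (SD, n = 4).

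The first by fold was s2f_0000319012. Solvent replicates 1 to 5 had 264.1, 2.59, 286.4, 226.5 and 310.4 CPM and exposed livers 1.81, 1.07, 0.943, 1.2 and 1.93 CPM. Solvent replicate 2 thus lay just above the exposed range and far below the other solvent livers. Its log2 fold change was -7.96 (SE 1.17, edgeR adjusted p = 0.00167). Leaving that library out gave -8.27 (SE 0.288, edgeR adjusted p = 8.43e-07). With limma-voom and all libraries it did not pass (adjusted p = 0.121).

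The second, s2f_0001165003, had a like CPM in all solvent livers, replicate 2 included. Solvent replicates 1 to 5 had 9.13, 7.76, 12.95, 7.27 and 9.42 CPM and exposed livers 0, 0.382, 0.0629, 0 and 0.0509 CPM. The groups were far apart, and the exposed livers together held 7 counts against 794 in solvent. Its log2 fold change was -7.12 (SE 0.742, edgeR adjusted p = 0.000338), and libraries at 3.33 µg/g had 0 to 0.14 CPM. The fifth and the eighth largest decreases have IDs that differ from this one only in the final 3 digits. The fifth went from 12.9 ± 4.92 to 0.307 ± 0.434 CPM (SD, n = 5 each; log2 fold change -6.06, edgeR adjusted p = 0.00105). The eighth stood at 415.8 CPM in solvent replicate 2, against 79.6 ± 15.5 CPM in the remaining 4 solvent livers (SD, n = 4), and 4.03 ± 5.58 CPM in exposed livers (SD, n = 5; log2 fold change -5.48, edgeR adjusted p = 0.00199). In exposed livers all 3 were highest in replicate 2, which had 13.88 CPM of the eighth where the others had 0.677 to 2.77 CPM.

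Several other decreases resembled the first. The third had 80.8 to 110.8 CPM in 4 solvent livers, 4.57 CPM in the remaining one, replicate 2, and 0.452 to 2.2 CPM in exposed livers. The seventh had 646.4 to 890.1 CPM in those 4, 106.9 CPM in replicate 2 and 13.74 to 25.94 CPM in exposed livers (log2 fold change -5.71, edgeR adjusted p = 0.000639). The ninth had 902.9 to 1135.3 CPM in those 4, 76.19 CPM in replicate 2 and 18.04 to 39.94 CPM in exposed livers (log2 fold change -5.37, edgeR adjusted p = 0.00169). In these 3 features solvent replicate 2 lay between the other solvent livers and the exposed livers. By contrast, rank 12 was highest of all by CPM in solvent replicate 2, at 227.4 CPM, against 108.5 to 205.4 CPM in the remaining 4, and 1.42 to 15.33 CPM in exposed livers (log2 fold change -5.07, edgeR adjusted p = 0.000599). CPM leaves out the TMM factor, which was 1.497 for solvent replicate 2, 0.659 to 0.906 for the other solvent livers and 1.073 to 1.294 for exposed livers. A ratio of mean CPM therefore need not match the log2 fold change given beside it. For the same reason the place of solvent replicate 2 among solvent livers by CPM need not hold on TMM-scaled levels.

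A few features held a large share of the counts in most solvent livers. Ranks 1 to 4 in solvent livers and rank 1 in exposed livers did not pass the test with all 10 libraries and TMM scaling. All of these passed without solvent replicate 2. The feature with the most counts in solvent livers had 112936.5, 326.7, 113433.9, 93878.5 and 103171 CPM in solvent replicates 1 to 5 and 24457.1, 11300.9, 9404.4, 22879.3 and 18992.8 CPM in exposed livers. Apart from solvent replicate 2, which was the lowest of all 10, every solvent liver lay far above every exposed liver. With all 10 libraries it did not pass the test (log2 fold change -2.95, SE 1.16, edgeR adjusted p = 0.0946). It did once solvent replicate 2 was left out (-3.27, SE 0.399, edgeR adjusted p = 0.000211).

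The feature ranked second in solvent livers behaved alike. It had 25193.3, 87.83, 27529.2, 23776.9 and 24549.9 CPM in solvent replicates 1 to 5 and 4955.8 to 8696.1 CPM in exposed livers. With all libraries it missed the threshold (-2.35, edgeR adjusted p = 0.129), and without replicate 2 it passed (-2.67, edgeR adjusted p = 8.57e-05). The third by rank was steadier, with 9449 to 12459 CPM in the 5 solvent livers and 9810.5 to 10238.2 CPM in exposed livers, so that the groups overlapped. The fitted value was -0.66 on the log2 scale (edgeR adjusted p = 0.172). It was -0.83 when replicate 2 was left out (edgeR adjusted p = 0.00366) and -0.12 with library size alone (edgeR adjusted p = 0.462).

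The feature with the most counts in exposed livers had 9093.6, 1834.1, 10798.3, 6972.8 and 7008.1 CPM in solvent replicates 1 to 5 and 38699.2, 32414, 22600.5, 51300.7 and 35777.6 CPM at 33.3 µg/g. All exposed livers lay above all solvent livers. In the test of 10 libraries it did not pass (log2 fold change 1.70, SE 0.622, edgeR adjusted p = 0.0754), whereas it did without solvent replicate 2 (1.41, SE 0.335, edgeR adjusted p = 0.00751) and with library size alone (2.34, edgeR adjusted p = 0.00328).

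**Figure D3:**
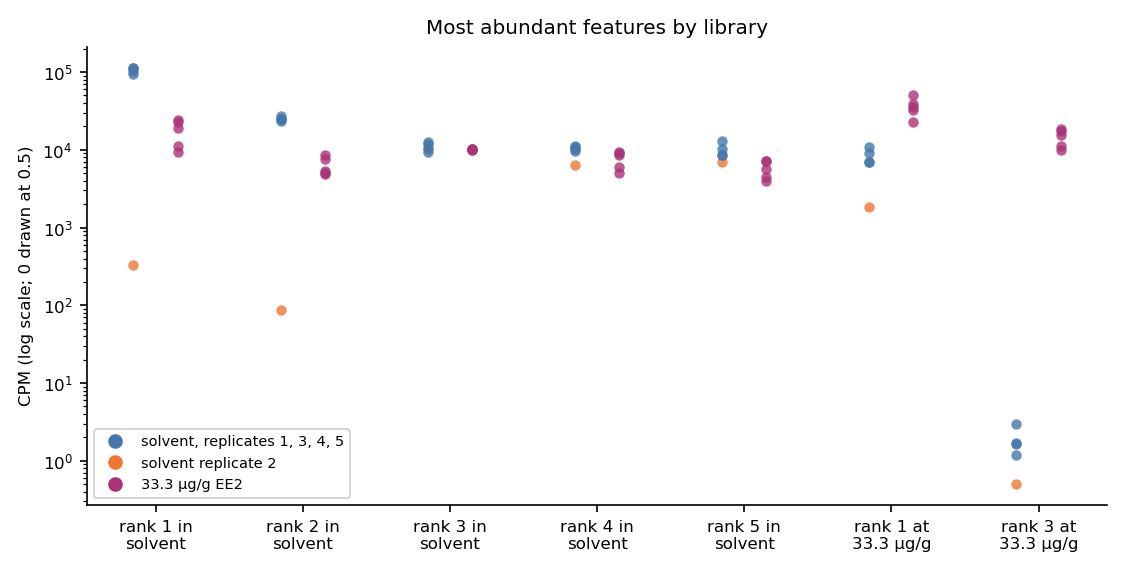
Level in each library, in CPM on a log axis with 0 drawn at 0.5, of the features with the most counts: the first 5 in solvent livers and ranks 1 and 3 at 33.3 µg/g, the other leading features at that dose being already among the 5. Solvent replicate 2 (orange) had 326.7 and 87.83 CPM of the first 2, where the other solvent livers (blue) had at least 93878.5 and 23776.9 CPM and exposed livers (purple) at least 9404.4 and 4955.8 CPM.

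Of the 20 features with the most counts in the solvent livers other than replicate 2, 19 fell and 1 rose when that library was left out, with a median log2 fold change of -1.82, against 0.0834 over all 12850 features. With library size alone and that library left out 16 fell and 1 rose. With all 10 libraries and TMM scaling 6 fell and 0 rose. Over all tested features, 21.5% fell and 20.5% rose in the first of these tests. In the second 954 of 12850 fell and 8218 rose, and in the third 11.6% fell and 10.4% rose. Of the 103 features with a mean of 1000 CPM or more, 77 fell in the first and 24 in the third. These 20 were ranked by their solvent counts, which enter the same comparison, so the count describes them and is no further test. Among features called both with and without solvent replicate 2, the largest loss in mean CPM over all 10 libraries was in a feature that went from 8611 ± 1330 CPM in the 4 solvent livers (SD, n = 4) to 593.2 ± 142.2 CPM (SD, n = 5), with 40.68 CPM in the excluded solvent library. Its log2 fold change over all 10 libraries was -4.23 (edgeR adjusted p = 0.0196), and limma-voom did not call it (adjusted p = 0.148). The next, from 9034.6 ± 2263.6 to 4487.4 ± 1043.7 CPM (SD, n = 5 each), held in all 5 solvent livers, the lowest at 7572.9 CPM and the highest exposed liver at 5293.8 CPM (log2 fold change -1.56, edgeR adjusted p = 0.0163). The fourth largest gain in the same set rose from 80.5 ± 46.3 to 1665.1 ± 360.8 CPM (SD, n = 5 each; log2 fold change 3.71, edgeR adjusted p = 0.00528).

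The counts were spread over more features after exposure, when solvent replicate 2 was set aside. The 20 leading features of each library held 30.6, 10.04, 31.2, 25.6 and 29.1% of the counts in solvent replicates 1 to 5 and 17.8, 14.3, 12.4, 19.9 and 16.9% in exposed livers. The means were 25.3 ± 8.81% and 16.3 ± 2.93% (SD, n = 5 each), a difference that did not pass an exact two-sided permutation test (p = 0.0635, 0.127 after Benjamini-Hochberg adjustment over 2 measures; smallest p possible 0.00794). Without solvent replicate 2 the solvent mean was 29.1 ± 2.52% (SD, n = 4), every exposed liver was lower, and the exact p was 0.00794, the smallest the design allows (adjusted 0.0159). The feature with the most counts in solvent livers alone held 10.6 ± 0.928% in those 4 (SD, n = 4) and 1.74 ± 0.677% in exposed livers (SD, n = 5). A large part of the lower share thus lay in 1 feature. Its part in the number of features at 1 CPM or more was not tested. The number of features with at least 1 CPM was 12067.8 ± 652.6 in solvent and 12388.2 ± 307.3 in exposed livers (SD, n = 5 each; exact permutation p = 0.333). It was 11808 ± 343.3 in the 4 other solvent livers (SD, n = 4; exact permutation p = 0.0476 against the exposed livers, and 0.0476 after adjustment). The library left out had the lowest share and the most features with at least 1 CPM of all libraries. Its removal therefore shares values with both tests, whose p-values without it describe the remaining libraries and are no independent support.

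**Figure D4:**
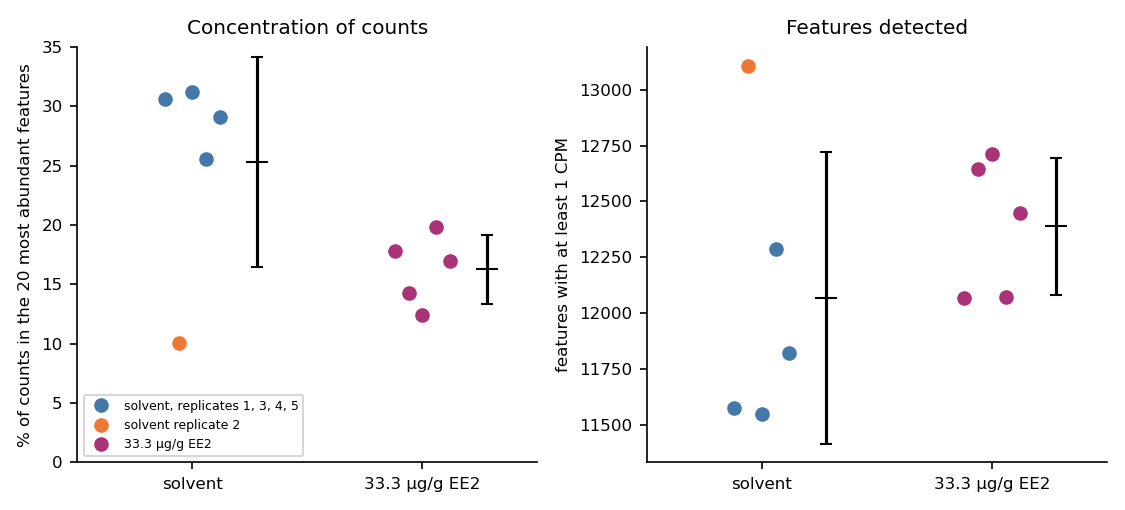
Share of counts in the 20 features with the most counts of each library (left) and number of features with at least 1 CPM (right; axis does not start at 0), one point per library, with the mean and SD of all 5 libraries of the group beside the points. Solvent replicate 2 (orange) had the lowest share, 10.04%, and the most features, 13107. The other 4 solvent livers had 25.6 to 31.2% and exposed livers 12.4 to 19.9%.

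Variation between livers was similar in both groups once that library was set aside. The median SD of log2 CPM over the 12777 tested features was 0.373 in the 5 solvent livers, 0.229 in the 4 without replicate 2 and 0.229 in the 5 exposed livers. In 4 exposed livers it was 0.199 with exposed replicate 3 left out and 0.236 with exposed replicate 2 left out. The common coefficient of biological variation in edgeR was 0.376 with all libraries and 0.264 without solvent replicate 2, and the median standard error of a log2 fold change fell from 0.207 to 0.162.

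For features called without it, solvent replicate 2 is a solvent liver that the test did not use. Of 2627 such increases that were also tested with all libraries, it lay on the solvent side of the midpoint between the 2 group means in 1134 (43.2%). In 1339 (51.0%) it was at or beyond the nearest exposed liver, which takes in values past all exposed livers. Of 2755 decreases it lay on the solvent side in 675 (24.5%) and was at or beyond the nearest exposed liver in 1794 (65.1%). For changes of at least 2-fold it lay on the solvent side in 47.0% of increases and 24.2% of decreases. The midpoint lies further from both means the larger the change, so shares at different fold sizes are not measured alike. Of 27 features that rose at least 16-fold without solvent replicate 2, it lay on the solvent side in 20 (74.1%) and was at or beyond the nearest exposed liver in 4. Of 49 that fell as much it lay on the solvent side in 10 (20.4%) and was at or beyond the nearest exposed liver in 25. These positions are on TMM-scaled levels, and by plain CPM they need not be the same. The tissue and exposure of solvent replicate 2 could not be checked against marker genes because the features are unnamed.

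**Figure D5:**
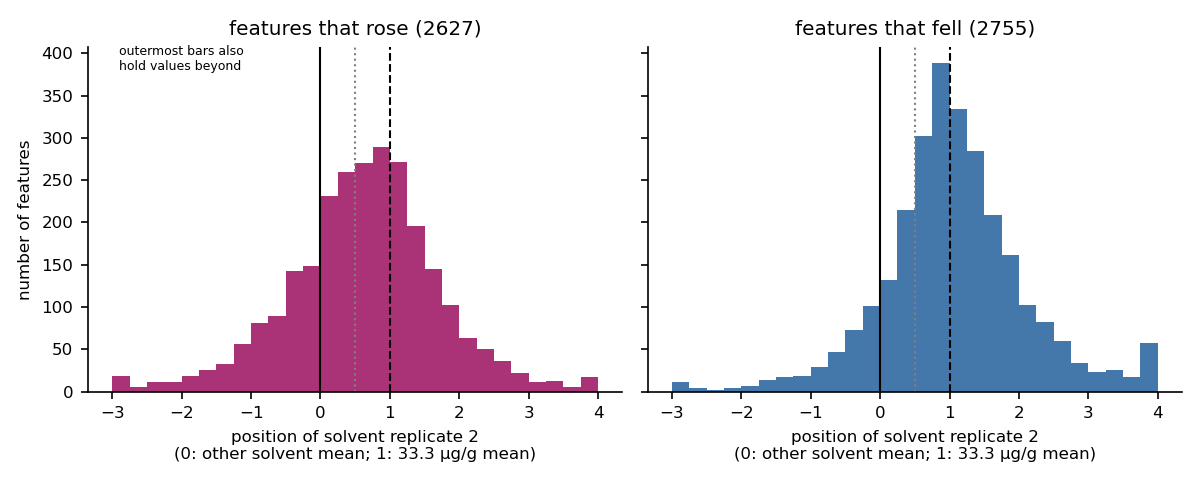
Position of solvent replicate 2, on TMM-scaled log2 CPM, for features that rose (left) and fell (right) in the test without it. On this scale 0 is the mean of the other 4 solvent livers (solid line) and 1 the mean at 33.3 µg/g (dashed line), with the midpoint dotted. Of the increases 43.2% and of the decreases 24.5% lie on the solvent side of the midpoint (outermost bars also hold values beyond the axis).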

How the data were processed

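The authors deposited 1 table of whole-number counts per feature, per the file headers with a library name and a dose class for each of 15 columns. The counts are taken as unnormalised since library totals differ. The sources used here name no aligner, counter, reference, annotation or use of strand, so features with near-identical copies may share or lose counts. Columns were matched to samples by dose class (high read as 33.3 µg/g, which no header states in words) and final digit of the name; 0 columns were left without a sample. No library repeated another of its group (chi-square per degree of freedom at least 16.72, features with at least 10 counts).

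Counts of the 10 libraries were fitted with the edgeR 4.0.16 quasi-likelihood test in R 4.3.3: 2 groups, no covariate, TMM scaling, filter by expression (minimum count 10, minimum total 15), two-sided, Benjamini-Hochberg adjustment over all tested features, threshold 0.05. Standard errors are the absolute log2 fold change over the square root of F. Log2 CPM used a prior count of 2. In simulated data on 12777 features with 100 changed 2-fold and 100 changed 4-fold, 45% and 83% were recovered and 5.19% of calls were false. No simulated library stood apart, and far fewer features were changed than were called in the real counts. These rates therefore need not hold here.

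Alternatives used limma 3.58.1 and DESeq2 1.42.0 among others. Named features were called with and without solvent replicate 2, had a mean of at least 1 CPM and no overlap between groups. The 15 largest changes in each direction by fold were taken, with the 5 largest gains and losses in mean CPM among features called in both tests and the 5 features with the most counts in each group. Only 4 are given by ID because no names are paired with IDs. Gene lists drawn up for this tissue could not be matched. The comparison, the rule and the lists were chosen with earlier results of these data known.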

Additional observations from a re-analysis of the deposited data

Results flagged for a closer look

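Of 90 groups of 5 values examined (43 features and 2 measures per library, in solvent and in exposed livers), 24 held a library set apart from its group by a gap above 0.71 of the range (Dixon's criterion at 95%). By chance about 1 group in 20 would if the values followed a normal distribution. Levels that rest on few counts do not, so that rate need not hold here. The values are linked, since several come from the same library, and 15 of the 24 are in solvent replicate 2.

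Solvent replicate 2 was low for 3 of the features with the most counts in solvent livers, at 326.7, 87.83 and 6320 CPM for ranks 1, 2 and 4, for rank 3 among losses of counts, at 3857 CPM, and for decreases of rank 1, 3, 9 and 11, at 2.586, 4.568, 76.19 and 17.24 CPM. Its share of counts in the 20 leading features, 10.04%, was also low. It was high for decreases of rank 8 and 14, at 415.8 and 38.44 CPM, and for increases of rank 3, 6, 11 and 12, at 2.241, 1.81, 0.2586 and 3.965 CPM.

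Exposed replicate 2 was high among exposed livers for decreases of rank 2, 5, 6, 8 and 14, at 0.3815, 1.068, 0.534, 13.88 and 1.144 CPM. These include all 3 decreases whose IDs differ only in the final 3 digits. Exposed replicate 3 was low for the largest loss of counts, at 344.7 CPM. Solvent replicate 5 was high for the loss of rank 2, at 12950.1 CPM, and solvent replicate 4 for the increase of rank 14, at 4.662 CPM. The value of solvent replicate 3 for s2f_0008026003, 0.05808 CPM where the other solvent livers had 0, is 1 count.

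The libraries at 3.33 µg/g, which the comparison did not use, held at least 26.76 CPM of s2f_0008026003, above every solvent library.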

How the results depend on the processing

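In all, 43 features were named, and none changed direction under any of the 25 other fits in which it was tested. Leaving out one library at a time gave 907 to 2640 increases, 986 to 2766 decreases, 329 to 668 increases and 566 to 1103 decreases of at least 2-fold, and 3 to 7 increases and 12 to 77 decreases at 1000 CPM or more; the highest value was without solvent replicate 2 each time, and without any other library the counts of increases and decreases were at most 1166 and 1294. The lowest count of decreases was without solvent replicate 1, and that of decreases at 1000 CPM or more without exposed replicate 5. The difference in the share of the 20 leading features was -12.85 to -7.565 percentage points and that in features with at least 1 CPM 190 to 580.2, both past an exact p of 0.05 only without solvent replicate 2. Groups without overlap without that library were 2215 and 2330 features. Increases, decreases, increases and decreases of at least 2-fold were, in this order, 3305, 3192, 831 and 1173 with limma-voom and sample weights; 532, 626, 249 and 434 at a threshold of 0.01; and 1951, 530, 846 and 301 with library size alone, where 473 features lay wholly below solvent. DESeq2 gave no adjusted p for 222 features with all libraries. With solvent replicate 2 left out the counts were 2660, 3104, 667 and 1184 with DESeq2; 2348, 2917, 617 and 1171 with median-of-ratios scaling; 8218, 954, 3619 and 416 with library size alone; 2526, 2747, 624 and 1105 with limma-voom; and 2546, 2298, 699 and 1008 with exposed replicates 2 and 3 left out as well. At 1000 CPM or more, decreases numbered 43 with DESeq2 and 77 with sample weights, and without solvent replicate 2 79 (DESeq2), 77 (median of ratios, limma-voom), 44 (library size) and 70 (exposed replicates 2 and 3 also out); increases numbered 13 and 25 with library size, with and without that library, and 1 when classes were set by solvent livers. The cause of these shifts was not tested.

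The replicate number as a block gave 777 increases and 836 decreases, with 329 and 499 of at least 2-fold and 3 and 1 at 1000 CPM or more. Nothing in the labels says that the numbers pair eggs, and deviations of libraries with the same number correlated at -0.397 to 0.496, with 2 of 5 solvent libraries closest to their own number. A single count is 0.0502 to 0.0862 CPM, so levels under about 1 CPM rest on few counts.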
